A study of Saccharomyces cerevisiae with 10 samples.

Results

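The comparison set [PSI+] yeast that overexpressed the C-terminal part of SUP35 (SUP35-Cter) against [PSI+] yeast without it, both grown in the synthetic medium YNB+CSM-U. It comprised 4 ribosome footprint libraries of the 10 libraries in the series, 2 from SUP35-Cter cells and 2 from [PSI+] cells. Both groups were Saccharomyces cerevisiae of the 74D694 background carrying the [PSI+] prion. Cultures in 2% glucose at 30 °C were taken at an OD600 between 0.6 and 0.8, after cycloheximide had arrested ribosomes on their messages. Ribosome protected fragments were then isolated and cloned with a small RNA kit that keeps strand. The labels name 2 replicates per group and do not say that these were separate cultures, so p-values measure the spread between these libraries. The promoter and vector of SUP35-Cter, and whether the [PSI+] cells carried an empty vector, are not given in the sources used here. Of 6190 genes and RNAs in the deposited table, 5566 had an average of both condition means of 10 or more and were measured: 5408 protein-coding genes, 67 small RNAs and 91 other rows. AAD3 was just inside that minimum with an average of 10.005, and the reading frame YGL102C was just outside it with 9.99.

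Sup35 is the translation release factor eRF3, a GTPase that works with Sup45 (eRF1) to end translation at stop codons. Its N-terminal prion domain lets it aggregate into the self-propagating [PSI+] form, which leaves less soluble factor and raises stop codon readthrough. The C-terminal part holds the GTPase and the Sup45 binding surface, does not need the prion domain to act in termination, and is known to restore termination in [PSI+] cells. A footprint is the stretch of mRNA shielded by 1 ribosome, so the count of a gene reflects its mRNA level and its translation together. No mRNA library in this medium was used here, so these cannot be told apart here, nor can fewer footprints per cell and fewer cells that make them.

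The authors' deposited table holds only the mean of each condition, but its 3 decimals and its p-values fix the whole reads behind most values. Reads of each library were recovered for 5949 of 6190 rows (96.1%), including 5176 of the 5408 measured protein-coding genes. Most rows without recovered reads, 202 of 241, had an average above 20000. Medians and counts with 1 library left out cover only rows with recovered reads. They can therefore also shift because rows drop out. The recovered rows held 23079779 and 13922117 reads in the SUP35-Cter libraries, against 20675902 and 5463779 in the [PSI+] libraries. The replicate number of a recovered library is unknown, so the libraries of a group are called deeper and shallower, and values are given in that order. A normalized count is the read count divided by the size factor of the library, and 1 read was worth 0.598 and 0.942 normalized counts in the SUP35-Cter libraries and 0.651 and 2.78 in the [PSI+] libraries. By correlation the 2 groups were not clearly apart as whole profiles. Over 5010 genes the shallower SUP35-Cter library correlated with the deeper SUP35-Cter library at a Pearson r of 0.959 and with the deeper [PSI+] library at 0.965, while the 2 [PSI+] libraries correlated at 0.961. These correlations run across genes, which are not replicates. The median absolute log2 difference was 0.208 between the SUP35-Cter libraries and 0.295 between the [PSI+] libraries. It was 0.219 between the shallower SUP35-Cter and the deeper [PSI+] library. The first principal component, with 59% of the variance, did separate the groups. It had -0.55 and -0.33 for the SUP35-Cter libraries and 0.12 and 0.76 for the [PSI+] libraries.

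SUP35 itself had 20623 and 20240.3 normalized counts in the SUP35-Cter libraries, against 5374 and 7040.5 in the [PSI+] libraries. The SUP35-Cter libraries lay within a few percent of each other and both far above the [PSI+] libraries, with a log2 ratio of 1.72 and an SE of 0.29 from edgeR's quasi-likelihood fit. Its adjusted p was 0.00529 in the authors' deposited table, while edgeR's quasi-likelihood test on the recovered reads gave an unadjusted p of 4.22e-04 and a Benjamini-Hochberg adjusted p of 0.156. The count is for the whole SUP35 gene, so reads from the chromosomal copy and from the SUP35-Cter construct cannot be told apart. SUP45, the partner release factor, had 9972 and 9842 normalized counts in the SUP35-Cter libraries, against 10197 and 16809 in the [PSI+] libraries. Both SUP35-Cter libraries were lower, but the deeper [PSI+] library was close to them and the log2 ratio of -0.45 was -0.04 without the shallower one.

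HSP104, the disaggregase that [PSI+] needs to propagate, averaged 38417 in SUP35-Cter cells and 50421 in [PSI+] cells in the authors' deposited table, a log2 ratio of -0.39, and its reads per library were not recovered. Among the auxotrophic markers of 74D694, a strain known to carry mutant alleles of ADE1, HIS3, LEU2, TRP1 and URA3, URA3 stood out. URA3, which encodes orotidine phosphate decarboxylase of uracil synthesis, had 3935 and 4513 normalized counts in the SUP35-Cter libraries, against 1096 and 544 in the [PSI+] libraries. The groups did not overlap, and the log2 ratio was 2.36 (SE 0.33). edgeR's quasi-likelihood test gave URA3 a Benjamini-Hochberg adjusted p of 0.126. The vector is not given, so URA3 reads from the chromosome and from any vector carrying URA3 cannot be told apart. LEU2, which acts in leucine synthesis, had 3734 and 2587 normalized counts in the SUP35-Cter libraries, against 4637 and 7457 in the [PSI+] libraries, lower in both SUP35-Cter libraries (log2 ratio -0.94). TRP1, of tryptophan synthesis, had a log2 ratio of -0.60 and ADE1, of adenine synthesis, -0.31, each with both SUP35-Cter libraries below both [PSI+] libraries. Without the shallower [PSI+] library the ratio was -0.55 for LEU2 and -0.36 for TRP1, and without the deeper SUP35-Cter library it was -0.17 for ADE1. HIS3 had 1 read over the 4 libraries together, in the deeper [PSI+] library, and was not measured.

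All 21 listed genes of termination, ribosome rescue and mRNA surveillance were measured, and SUP35 was the only member past 2-fold and the only one called by the authors. Their median log2 ratio was -0.05, beside -0.02 for all protein-coding genes, and it turned to 0.14 with protein-coding sums as the scale and to 0.03 without the shallower [PSI+] or the deeper SUP35-Cter library. EBS1, a gene linked to nonsense-mediated decay, had 1479 and 1374 normalized counts in the SUP35-Cter libraries, against 953 and 871 in the [PSI+] libraries (log2 ratio 0.64), with no overlap. DOM34, which rescues stalled ribosomes, had 2827 and 3109 normalized counts in the SUP35-Cter libraries, against 4477 and 4390.2 in the [PSI+] libraries (log2 ratio -0.58), and its groups were also apart, in the other direction. UPF3, of nonsense-mediated decay, was lower in both SUP35-Cter libraries too, at 1369 and 1762 against 2448 and 2012 in the [PSI+] libraries (log2 ratio -0.51). The decay factors NAM7 and NMD2 had log2 ratios of 0.07 and -0.09, HBS1, the partner of Dom34, -0.12, and the recycling factor RLI1 -0.34. The SKI genes, which guide mRNA to the exosome, had 0.12 for SKI2, 0.03 for SKI3, -0.10 for SKI7 and -0.05 for SKI8. The other members ITT1, TPA1, PPQ1, ECM32, GLE1, DBP5, STM1 and PAB1 had log2 ratios of 0.18, 0.06, 0.02, 0.01, -0.05, -0.29, -0.29 and -0.13. Many of these signs did not hold: without the shallower [PSI+] library RLI1 was at 0.06 and STM1 at 0.25, and with protein-coding sums HBS1 was at 0.08 and PAB1 at 0.07. The signs of NMD2, SKI3, SKI7, SKI8, TPA1, PPQ1, ECM32 and GLE1 also turned under some scaling or left-out library. Of the list, the authors' deposited table gave SUP35 alone an adjusted p below 0.05.

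Over all 5408 measured protein-coding genes, 170 (3.14%) had a log2 ratio of 1 or more and 59 (1.09%) of -1 or less, 229 (4.23%) in all. The middle 50% of log2 ratios ran from -0.25 to 0.25. An adjusted p below 0.05 was given by the authors' deposited table to 55 genes (1.02%), and 48 of them (0.888%) were higher and 7 (0.129%) lower in SUP35-Cter cells. Scaling each condition by its protein-coding sum shifted every log2 ratio by 0.19 and turned the split of 170 higher and 59 lower into 306 and 29. All 55 called genes had recovered reads. In 54 of them the libraries of the groups did not overlap, the exception being INO1. Among the 5176 genes with recovered reads, 1237 (23.9%) had both SUP35-Cter libraries above and 1186 (22.9%) both below. The calls came from these same libraries, so the lack of overlap is no separate support.

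The number of calls rested on how replicate spread was treated. A dispersion that depended on the mean count alone gave back the deposited p-values within 1 percent for 5493 of 5494 rows. For 4527 rows the reads had been chosen with the p-value on such a curve, so their match was fixed in advance. The other 1422 recovered rows used the means and the fold alone. Those among them that were checked also lay within a relative distance of 9.47e-06 of the curve. In these rows a gene's own spread between replicates did not enter the p-value. With the larger of that curve and the gene's own dispersion, 3 protein-coding genes kept an adjusted p under 0.05, and these were URA3, EFT2 and ROT2. edgeR's quasi-likelihood test called 0 of 5176 at a Benjamini-Hochberg adjusted p under 0.05, with 666 (12.9%) under an unadjusted p of 0.05 and a smallest adjusted p of 0.125. DESeq2 on the same reads called 149 (2.88%), 119 higher (2.3%) and 30 lower (0.58%). Counts were also simulated for 5325 genes, with the dispersions that edgeR fitted to these libraries. There the edgeR test called 22 of 50 genes changed 2-fold, 45 of 50 changed 4-fold and all 50 changed 8-fold, with 6 unchanged genes called. In the data FLO9 and URA3, with log2 ratios of 2.50 and 2.36, had adjusted p of 0.156 and 0.126 by that test. The simulated shares therefore need not hold for the data. All 55 genes called in the deposited table had an unadjusted edgeR p under 0.05. Both tests used the same libraries, so this gives no separate support. In what follows, called refers to genes with an adjusted p below 0.05 as given by the authors' deposited table.

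**Figure D1:**
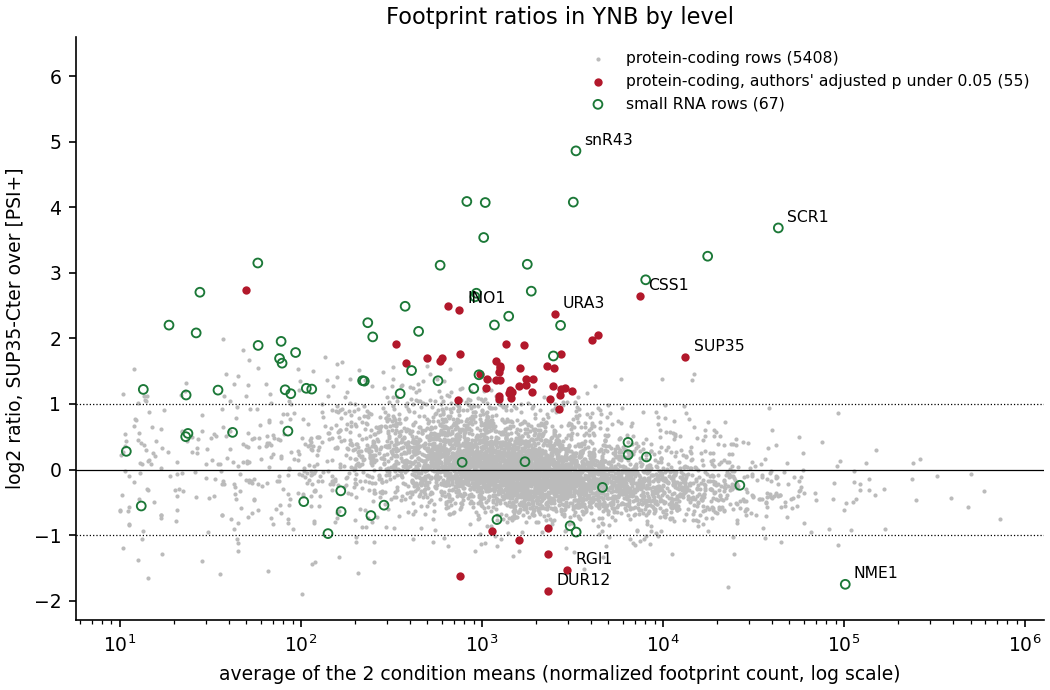
Log2 ratio of the condition means, SUP35-Cter over [PSI+], against the average of both means on a log axis, for protein-coding genes (grey), protein-coding genes called in the authors' deposited table (red) and small RNAs (green circles), with dotted lines at a log2 ratio of 1 and -1. The 55 called genes lie mostly above 1, and 44 of the 67 small RNAs lie at or above that line.

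Among the called genes with the largest ratios, CSS1 had 20391 and 5401 normalized counts in the SUP35-Cter libraries, against 1242 and 2897 in the [PSI+] libraries (log2 ratio 2.64). Every SUP35-Cter value was above every [PSI+] value, but the libraries of a group differed by more than 2-fold, and the log2 ratio of CSS1 was 1.38 without the deeper SUP35-Cter library. FLO9, a flocculin that binds cells to each other, had 1566 and 643 normalized counts in the SUP35-Cter libraries, against 204 and 186 in the [PSI+] libraries, apart in both libraries (log2 ratio 2.50, SE 0.43). FLO1, FLO5 and FLO9 are close copies, so how reads were assigned among them is uncertain.

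PEP1, the receptor that sorts carboxypeptidase Y to the vacuole, had 2554 and 1724 normalized counts in the SUP35-Cter libraries, against 591 and 544 in the [PSI+] libraries, and its log2 ratio was 1.91 (SE 0.25). TUL1, a Golgi ubiquitin ligase, had 621 and 443 normalized counts in the SUP35-Cter libraries, against 149.8 and 133 in the [PSI+] libraries (log2 ratio 1.91). CWH43, which fits GPI anchors with ceramide, had 3224 and 2180.4 normalized counts in the SUP35-Cter libraries, against 752 and 697 in the [PSI+] libraries (log2 ratio 1.90, SE 0.24). In all 3 the libraries of a group lay within 1.5-fold of each other and the groups were far apart. NCR1, a vacuolar membrane protein related to the Niemann-Pick sterol transporter, had 1417 and 926 normalized counts in the SUP35-Cter libraries, against 366 and 327 in the [PSI+] libraries (log2 ratio 1.76). EFT2, coding for elongation factor 2, had 4447 and 3962 normalized counts in the SUP35-Cter libraries, against 1382 and 1091 in the [PSI+] libraries (log2 ratio 1.77, SE 0.22). Its near-identical copy EFT1 had 6913 and 5016 normalized counts in the SUP35-Cter libraries, against 3684 and 1268 in the [PSI+] libraries (log2 ratio 1.27), so both copies were higher in each SUP35-Cter library, although EFT1 was not called, and how reads were assigned between the copies is uncertain.

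**Figure D2:**
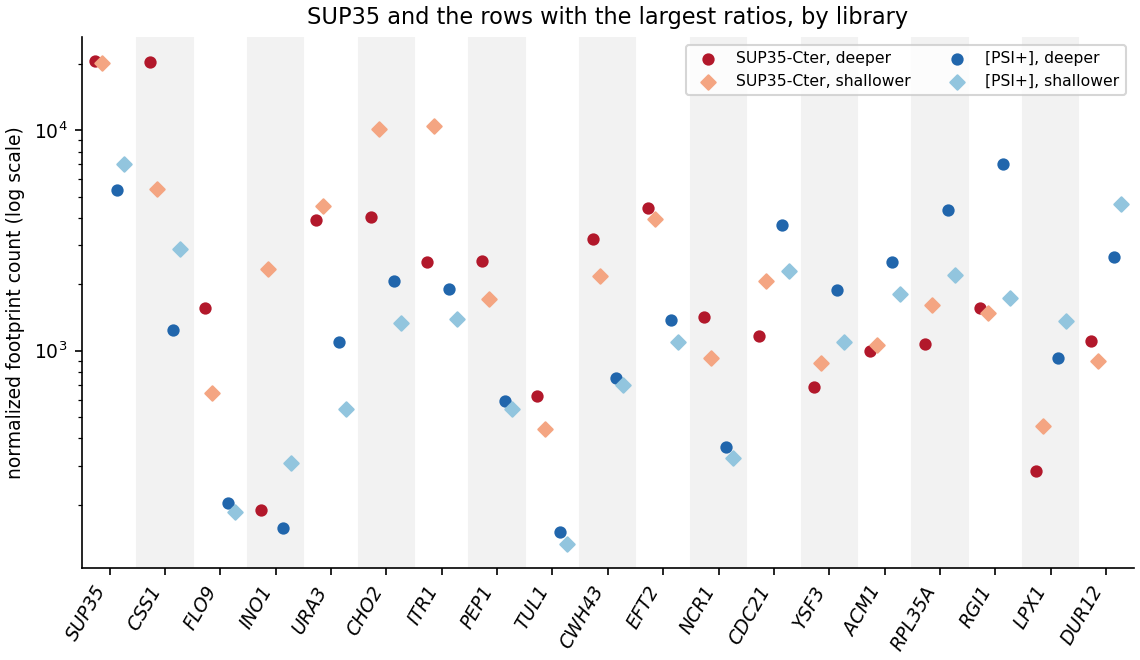
Normalized footprint count (log axis) in each of the 4 libraries for SUP35, the 11 other called genes with the largest positive log2 ratio among genes with an average of 50 or more, which leaves out HXT7, and the 7 called genes with a negative one. SUP35-Cter libraries (red, orange) stand left of [PSI+] libraries (dark and light blue), and the groups overlap in INO1 alone.

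The 7 genes called lower were a mixed set. DUR12, the DUR1,2 gene for urea amidolyase of urea breakdown, had 1110.2 and 899 normalized counts in the SUP35-Cter libraries, against 2648 and 4621 in the [PSI+] libraries, with no overlap (log2 ratio -1.85, SE 0.29). LPX1, a peroxisomal lipase, had 284 and 454 normalized counts in the SUP35-Cter libraries, against 922 and 1357 in the [PSI+] libraries (log2 ratio -1.63). RGI1, needed for respiratory growth, had 1562 and 1477 normalized counts in the SUP35-Cter libraries, against 7049 and 1729 in the [PSI+] libraries (log2 ratio -1.53), and the log2 ratio of RGI1 was -0.19 without the deeper [PSI+] library. RPL35A, a large subunit ribosomal protein, had 1076 and 1604 normalized counts in the SUP35-Cter libraries, against 4360.2 and 2215 in the [PSI+] libraries (log2 ratio -1.29), while its copy RPL35B had a log2 ratio of -0.57. ACM1, an inhibitor of the anaphase-promoting complex, had 1001 and 1059.6 normalized counts in the SUP35-Cter libraries, against 2516 and 1804 in the [PSI+] libraries (log2 ratio -1.07), also with no overlap. YSF3, a splicing factor subunit, and CDC21, thymidylate synthase, had log2 ratios of -0.93 and -0.90. Without the deeper [PSI+] library these were -0.49 for YSF3 and -0.51 for CDC21, and -0.72 for RPL35A, and without the deeper SUP35-Cter library CDC21 was at -0.54.

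Lists of protein glycosylation had medians above 0 under each setting tried, including each left-out library. The lists of Golgi mannosyltransferases, protein O-mannosyltransferases, GPI anchor synthesis, N-glycan synthesis, ABC transporters, P-type ATPases, flocculins, bridge-like lipid transfer proteins and the signal recognition particle with its translocon were added after values had been seen, and are described without a test. Of 22 Golgi mannosyltransferase genes, which extend glycan chains on secreted proteins, all had a log2 ratio above 0, with a median of 0.80 beside -0.02 for all protein-coding genes. In 17 of them both SUP35-Cter libraries exceeded both [PSI+] libraries, against 23.9% of all genes. MNN11 had 404 and 216 normalized counts in the SUP35-Cter libraries, against 90.5 and 125 in the [PSI+] libraries (log2 ratio 1.52), MNN5 was called at 1.36 and ANP1 at 1.07, which without the deeper SUP35-Cter library were 0.90 for MNN5 and 0.68 for ANP1. OCH1, which starts the outer mannose chain, had 0.79, and MNN9 had 0.24, the lowest of the list.

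Protein O-mannosyltransferases, the PMT genes that place the first mannose in the endoplasmic reticulum (ER), had a median log2 ratio of 0.94 and 6 of 7 were apart in the higher direction, against 23.9% of all genes. PMT4, which was called, had 2266 and 1661 normalized counts in the SUP35-Cter libraries, against 871 and 871 in the [PSI+] libraries (log2 ratio 1.17), and the abundant PMT1 and PMT2 had 0.69 and 0.41. Of 27 genes that build or remodel GPI anchors, the glycolipids that tether surface proteins, 23 were above 0 and 21 were apart in the higher direction, 0 in the lower (median 0.52). The mannose and phosphoethanolamine transfer genes GPI13, LAS21, MCD4 and SMP3 had log2 ratios of 1.46, 1.05, 1.02 and 0.89, while GPI1, GPI2, GPI11, GPI15 and ERI1, small or early-acting members, had 0.13, -0.21, 0.07, 0.20 and -0.19.

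N-glycan genes were less uniform, with 13 of 26 apart higher and 3 apart lower, against 23.9% and 22.9% of all genes. Their median was 0.38, and 0.22 without the deeper SUP35-Cter library. ROT2, glucosidase II, had 2135 and 1628 normalized counts in the SUP35-Cter libraries, against 611 and 647 in the [PSI+] libraries (log2 ratio 1.58, SE 0.22), with the [PSI+] libraries almost level. STT3, the catalytic subunit of oligosaccharyltransferase, had 4071 and 2390.4 normalized counts in the SUP35-Cter libraries, against 1300.4 and 1779 in the [PSI+] libraries (log2 ratio 1.07, and 0.63 without the deeper SUP35-Cter library), and was also called. Within the same complex OST1 and OST2 had 0.48 and 0.55, while the subunits SWP1 and OST4 had -0.61 and -0.93. The 17 genes of the signal recognition particle and the translocon, which bring secretory proteins into the ER, had a median of -0.31, and -0.12 with protein-coding sums, with 9 apart lower and 3 apart higher, against the same shares of all genes. SEC63 and SSH1 were the highest at 0.75 and 0.67, and SSS1, SRP68, SBH1 and SRP54 the lowest at -0.63, -0.52, -0.52 and -0.51. In the ER folding list KAR2, the luminal Hsp70, had 16721 and 12084 normalized counts in the SUP35-Cter libraries, against 7804 and 9383 in the [PSI+] libraries (log2 ratio 0.74), and IRE1, the sensor of unfolded protein, had 556 and 463 normalized counts in the SUP35-Cter libraries, against 206 and 214 in the [PSI+] libraries (log2 ratio 1.28). Both were apart in all libraries but not called.

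The cell wall list had 50 measured genes, of which 6 were called higher and 0 lower, against 0.888% and 0.129% of all genes, with a median log2 ratio of 0.34. Beside FLO9, the called members were FLO1 with 1326 and 453 normalized counts in the SUP35-Cter libraries, against 178 and 389 in the [PSI+] libraries (log2 ratio 1.65), and 4 genes of wall remodelling and daughter cell separation. The 4 flocculins measured had a median log2 ratio of 1.05, and 0.35 without the deeper SUP35-Cter library. The 4 remodelling genes were the glucanase SCW11 at 1.29, the chitinase CTS1, EGT2 at 1.18 and the glucanosyltransferase GAS5 at 1.14. In SCW11, CTS1 and EGT2 the deeper SUP35-Cter library was at least 2-fold above the shallower one: CTS1 had 6082 and 2743 normalized counts in the SUP35-Cter libraries, against 2076 and 1754 in the [PSI+] libraries. Without that library the log2 ratio was 0.53 for SCW11, 0.52 for CTS1, 0.27 for EGT2 and 0.68 for FLO1. The median of the cell wall list was 0.12 without the deeper SUP35-Cter library and 0.66 without the shallower one. Several mannoproteins lay in the other direction, among them TIR3 with 129 and 76.3 normalized counts in the SUP35-Cter libraries, against 182 and 436 in the [PSI+] libraries (log2 ratio -1.58), CWP2 at -0.91 and CCW14 at -0.65. KRE5, an ER protein of wall glucan synthesis outside that list, was called at 1.46.

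Lists of membrane transporters also had medians above 0. Of 23 genes for amino acid and peptide uptake and its regulators, 18 were above 0 and 14 of 22 were apart in the higher direction, against 23.9% of all genes. The list median was 0.67, and 0.39 without the deeper SUP35-Cter library. PTR2, the peptide transporter, was called with 1989.7 and 980.5 normalized counts in the SUP35-Cter libraries, against 645 and 602 in the [PSI+] libraries (log2 ratio 1.25, and 0.65 without that library). The permeases AGP3, HIP1 (histidine), SAM3 (S-adenosylmethionine), MUP3 (methionine) and LYP1 (lysine) had log2 ratios of 1.13, 1.05, 0.98, 0.95 and 0.73. The 2 transcription factors of the list, STP1 and STP2, were apart in the lower direction at -0.16 and -0.19, and GAP1, the general permease, was at -0.75 with overlapping groups.

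All 20 measured ABC transporters of membranes had a log2 ratio above 0, with a median of 0.71. YBT1, a vacuolar bile acid transporter, had 4755 and 2713 normalized counts in the SUP35-Cter libraries, against 1408 and 1154 in the [PSI+] libraries (log2 ratio 1.54), ADP1 had 2340.4 and 1335 normalized counts in the SUP35-Cter libraries, against 759 and 547 in the [PSI+] libraries (log2 ratio 1.49), and the oligomycin exporter YOR1 had 2055 and 1349.7 normalized counts in the SUP35-Cter libraries, against 599 and 963 in the [PSI+] libraries (log2 ratio 1.12). All 3 were called and none overlapped. STE6, the exporter of a-factor, had 0.95 and PDR5, the main drug exporter, 0.38. P-type ATPases had a median of 0.77, with the lipid flippase DNF1 called at 2565 and 1982 normalized counts in the SUP35-Cter libraries, against 990.4 and 879.7 in the [PSI+] libraries (log2 ratio 1.28), the vacuolar calcium pump PMC1 at 1.10 and the plasma membrane proton pump PMA1 at 0.87. ENA1, a sodium pump with near-identical neighbours, lay opposite at -1.16, apart in the lower direction. SUL2, the sulfate permease of the sulfur and methionine list, had 3110.0 and 1752 normalized counts in the SUP35-Cter libraries, against 686 and 971 in the [PSI+] libraries (log2 ratio 1.55) and was called, and the multicopper oxidase FET5 was called at 1.21.

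Bridge-like lipid transfer proteins, very long rods that carry lipid between membranes, had a median log2 ratio of 1.34. All 5 were apart in the higher direction, against 23.9% of all genes. Among genes over 4000 bases with recovered reads, 119 of 176 were apart in that direction. HOB2 had 596 and 555 normalized counts in the SUP35-Cter libraries, against 194 and 180.4 in the [PSI+] libraries (log2 ratio 1.62), FMP27 had 3198 and 2334 normalized counts in the SUP35-Cter libraries, against 1328 and 785 in the [PSI+] libraries (log2 ratio 1.39), and CSF1 had 771 and 592 normalized counts in the SUP35-Cter libraries, against 285 and 253 in the [PSI+] libraries (log2 ratio 1.34). VPS13 and ATG2 followed at 0.67 and 0.26. The called genes IST2 and TCB2, which tether the ER to the plasma membrane, had 1.27 and 1.09, and the phospholipase NTE1 and the acyltransferase GPT2 had 1.38 and 1.36.

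**Figure D3:**
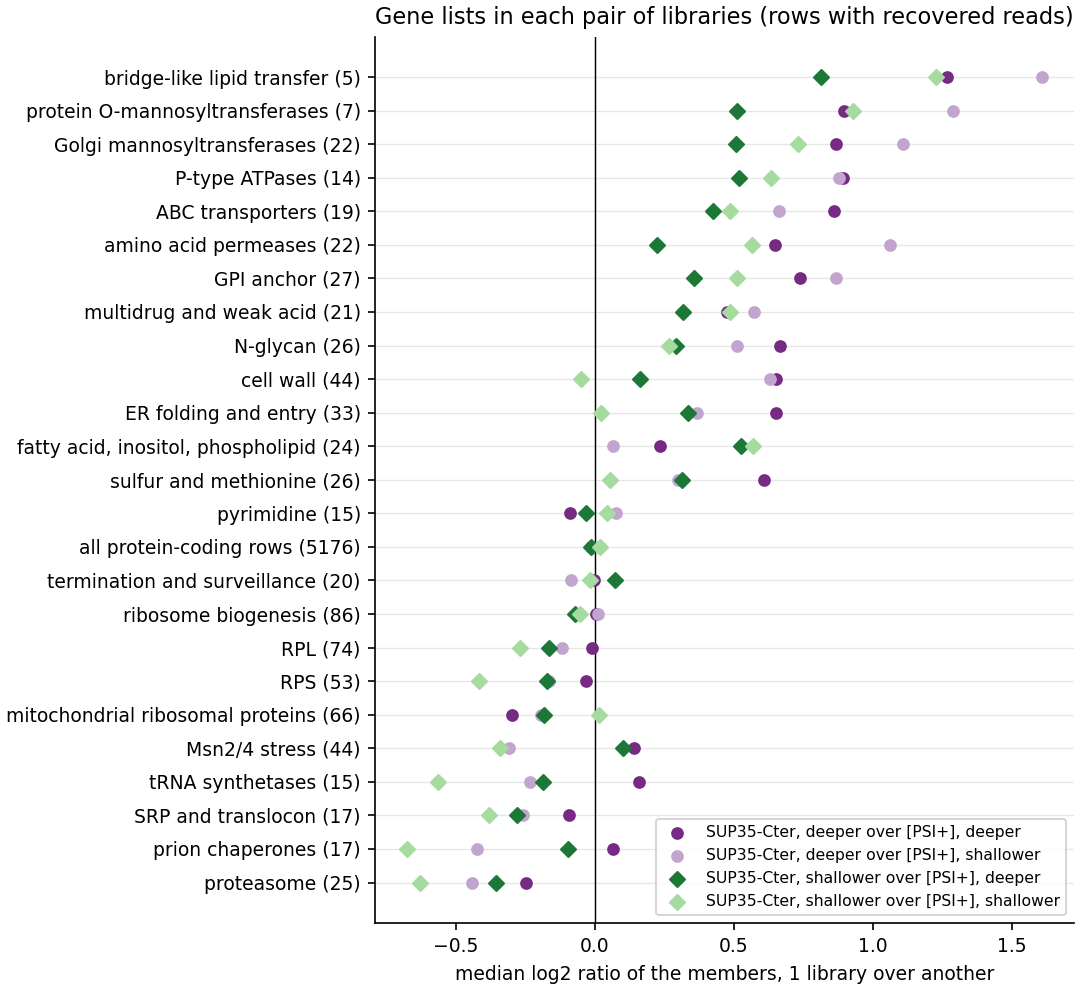
Median log2 ratio over the members of each gene list (number with recovered reads in parentheses) for the 4 pairings of a SUP35-Cter library over a [PSI+] library. The bridge-like lipid transfer, O-mannosyl, Golgi mannosyltransferase, P-type ATPase, ABC transporter, GPI anchor and N-glycan lists lie above 0 in all 4 pairings and the proteasome and the signal recognition particle below 0 in all 4, while the tRNA synthetase, prion chaperone and Msn2/4 lists fall on both sides.

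Genes of inositol and phospholipid synthesis were high mainly in the shallower SUP35-Cter library. INO1, which makes inositol phosphate, had 189 and 2341 normalized counts in the SUP35-Cter libraries, against 158 and 308 in the [PSI+] libraries. The deeper SUP35-Cter library lay between the [PSI+] libraries, so the log2 ratio of 2.44 rested on the shallower one and was -0.30 without it. ITR1, the inositol transporter, had 2535 and 10425 normalized counts in the SUP35-Cter libraries, against 1906 and 1388 in the [PSI+] libraries (log2 ratio 1.98), and CHO2, the first methylase of phosphatidylcholine synthesis, had 4036 and 10178 normalized counts in the SUP35-Cter libraries, against 2072 and 1340.4 in the [PSI+] libraries (log2 ratio 2.06). In these the groups were apart, with the shallower SUP35-Cter library at least 2-fold above the deeper, and without the shallower the log2 ratio was 0.62 for ITR1 and 1.24 for CHO2. OPI3, the next methylase, was not called and had 2278 and 14731 normalized counts in the SUP35-Cter libraries, against 3059.8 and 3441 in the [PSI+] libraries (log2 ratio 1.39), with the deeper SUP35-Cter library below both [PSI+] libraries. The list as a whole had 3 of 28 called higher, INO1 with its overlapping groups among them, and 0 lower, against 0.888% and 0.129% of all genes. Its median was 0.28, and 0.16 without the shallower SUP35-Cter library. ACC1, FAS1 and FAS2 of fatty acid synthesis had log2 ratios of -0.36, -0.12 and -0.36.

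In pyrimidine synthesis 3 of 16 measured genes were called, URA3 and URA10 higher and CDC21 lower. Whether URA3 reads came in part from a vector is not known, so its call need not reflect the pathway. Of all genes 0.888% were called higher and 0.129% lower. The list median of 0.09 turned to -0.16 without the shallower SUP35-Cter library and -0.06 without the shallower [PSI+] library. URA10, a minor orotate phosphoribosyltransferase, had 1629 and 5231 normalized counts in the SUP35-Cter libraries, against 1315 and 985 in the [PSI+] libraries (log2 ratio 1.58, and 0.50 without the shallower SUP35-Cter library), and its main isoenzyme URA5 had -0.25 in the other direction. The uridine and uracil permeases FUI1 and FUR4 had 0.94 and 0.77, and PPR1, the activator of URA genes, 0.80, all apart in the higher direction. The salvage and nucleotide genes FUR1, FCY1 and DUT1 were apart in the lower direction at -0.40, -0.42 and -0.74.

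No gene of the arginine and nitrogen lists was called, and DUR12, described above, was not counted in them. CAR1, arginase, had 2206 and 1589.8 normalized counts in the SUP35-Cter libraries, against 3346 and 7515 in the [PSI+] libraries (log2 ratio -1.52), and CAR2, the next enzyme of arginine breakdown, had -1.07, while ARG8 and ARG2 of arginine synthesis had 1.03 and 0.98. Of the allantoin genes, DAL3 had -1.16, DAL1 -0.81 and DAL2 -0.72, and DAL80, a repressor of nitrogen genes, had 97.4 and 33.0 normalized counts in the SUP35-Cter libraries, against 122 and 228 in the [PSI+] libraries (log2 ratio -1.42). The shallower [PSI+] library carried much of these differences, and without it the log2 ratio was -0.82 for CAR1, -0.22 for CAR2, -0.48 for DAL3 and -0.90 for DAL80. Across the 25 measured genes under nitrogen catabolite control, 8 of 24 with recovered reads were apart lower and 5 higher, beside 22.9% and 23.9% of all genes, and the median of -0.14 turned to 0.06 on the scale of protein-coding sums.

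Most proteasome genes had lower footprint counts. Of 33 measured genes 30 had a log2 ratio below 0, with a median of -0.45 that stayed at -0.26 when each condition was scaled by its protein-coding sum. With recovered reads, 18 of 25 were apart in the lower direction and 1 in the higher, against 22.9% of all genes apart lower. RPN13, a ubiquitin receptor of the regulatory particle, had 4529.7 and 6104 normalized counts in the SUP35-Cter libraries, against 10462 and 12979 in the [PSI+] libraries (log2 ratio -1.14, SE 0.28), the core subunit PRE6 had -0.74 and the base subunit RPT2 -0.50. BLM10, an alternative activator, was the 1 apart higher (0.26), and RPN4, the transcription factor of the set, had 0.04. None was called.

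The large and small subunit ribosomal proteins and the mitochondrial ones had medians of -0.18, -0.19 and -0.18, which became 0.01, 0.01 and 0.01 on the scale of protein-coding sums. RPL35A was the only one called. Ribosome biogenesis had a median of -0.04 and 0.16 on these scales. Of 21 aminoacyl-tRNA synthetases 20 were below 0 (median -0.28). Over the 15 with recovered reads, however, the median was 0.00 without the shallower [PSI+] library. The prion chaperones and the Msn2/4 stress genes had medians of -0.32 and -0.23. Over the 17 of 27 and 44 of 55 with recovered reads, these likewise turned to 0.01 and 0.10 without the shallower [PSI+] library. SSA3, a stress Hsp70, had 1102 and 1171 normalized counts in the SUP35-Cter libraries, against 1130.4 and 3291 in the [PSI+] libraries (log2 ratio -0.96), a case where that 1 library set the ratio. No prion chaperone and no Msn2/4 gene was called.

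The other lists of metabolism and growth held few calls. Genes of iron and copper, hexose transport, zinc and lysine had medians of 0.29, 0.36, 0.37 and 0.40, which without the shallower SUP35-Cter library were 0.13, 0.10, 0.23 and 0.24. Genes of glycolysis, respiration, ergosterol, purine synthesis and autophagy had medians of -0.10, -0.06, -0.09, -0.18 and -0.06, and with protein-coding sums these became 0.10, 0.14, 0.10, 0.02 and 0.14. Reads were recovered for only 11 of the 27 glycolysis genes, and medians with a library left out cover these alone. They were 0.12 and 0.37 without the deeper and the shallower [PSI+] library. Without the deeper and the shallower SUP35-Cter library they were -0.30 and 0.44. Part of the shift from -0.10 can come from the genes that dropped out, such as PGK1 at -0.76. None of these 5 lists held a called gene. Other prion-forming proteins had a median of -0.02, which was 0.17 with protein-coding sums, and genes known for readthrough or frameshifting 0.06, which was -0.02 without the deeper [PSI+] library, with 0 called among 13 and 9 genes.

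The ratio followed gene length. By the lengths in RefSeq, the median log2 ratio was -0.19 in genes of up to 300 bases, 0.00 from over 1000 to 2000 bases and 0.31 over 4000 bases. In each pairing of a SUP35-Cter with a [PSI+] library the median was below 0 in genes of up to 1000 bases and highest over 4000 bases, and Spearman's rho between length and ratio was 0.22 to 0.43 across 5176 genes. Between the libraries of 1 group it was 0.05 for SUP35-Cter and -0.05 for [PSI+]. Genes of up to 600 bases and genes over 3000 bases had medians of -0.23 and 0.25 in the pairing of the deeper libraries of both groups. Genes called higher had a median length of 2569.5 bases and genes called lower of 854, beside 1254 for all measured genes. Only 7 genes were called lower, and 854 is the length of RPL35A. These are lengths of the gene, so any introns are counted in them. Several lists above follow this order, with median lengths of 7887 bases for bridge-like lipid transfer and 4335 for ABC transporters, against 921 for the proteasome and 822 for the translocon list. The GPI anchor and Golgi mannosyltransferase lists each had a median of 1473. The part of length in these ratios was not tested.

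**Figure D4:**
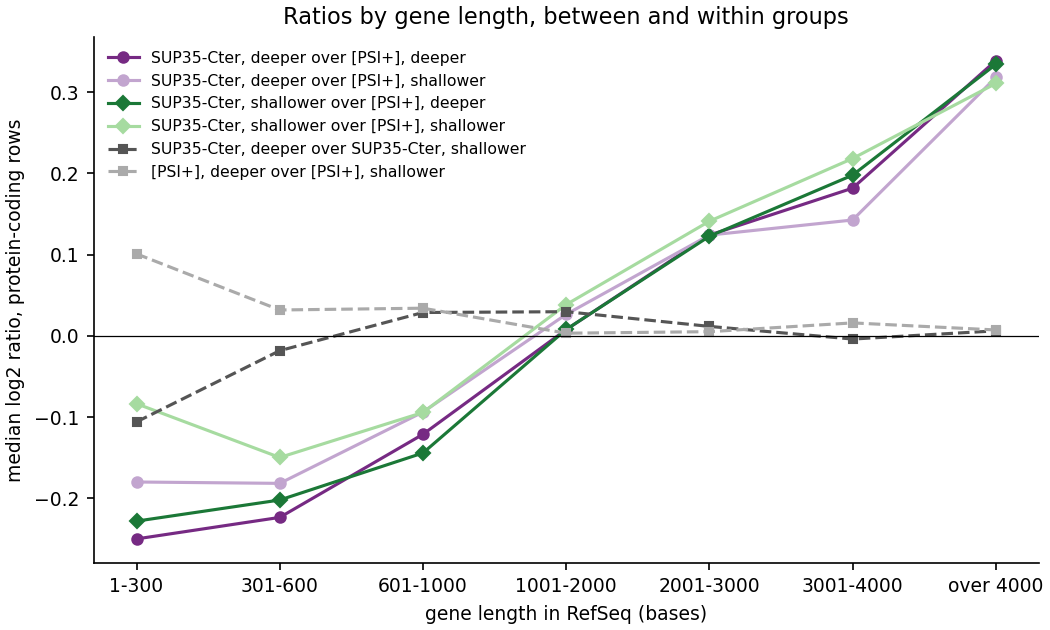
Median log2 ratio of protein-coding genes in 7 classes of gene length (bases) for the 4 pairings of a SUP35-Cter library over a [PSI+] library (solid) and the 2 pairings within a group (dashed). The solid lines are below 0 in genes of up to 1000 bases and at 0.31 to 0.34 in genes over 4000 bases, where the dashed lines are at 0.0061 and 0.0072.

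Level also went with the ratio. The median log2 ratio was 0.21 in the lowest sixth of genes by average count and -0.24 in the highest. Here the [PSI+] libraries differed between themselves, with Spearman's rho of -0.35 between level and the log2 ratio of the deeper over the shallower library, against 0.04 within SUP35-Cter. Its part in the group ratios was not tested.

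The remaining called genes, named after their values were seen, were spread over other roles. HXT7, a hexose transporter, had 136 and 37.7 normalized counts in the SUP35-Cter libraries, against 8.47 and 16.7 in the [PSI+] libraries (log2 ratio 2.74), at low counts, and its copy HXT6 makes the assignment of reads uncertain. ATH1, an acid trehalase, had 1.70, MSB2, a surface sensor of osmotic stress, 1.65, OPT1, an oligopeptide transporter, 1.38, AXL2, a bud site protein, 1.07, and the membrane protein FLC3 1.71. ATG42, RSN1, TVS1, YGL140C and YGL114W had 1.24, 1.18, 0.93, 1.55 and 1.23. All were higher in both SUP35-Cter libraries than in both [PSI+] libraries. Without the deeper SUP35-Cter library the log2 ratio was 1.55 for HXT7, 0.95 for MSB2, 0.72 for OPT1, 0.56 for AXL2, 0.75 for ATG42, 0.76 for RSN1, 0.33 for TVS1 and 0.65 for YGL114W.

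Small RNAs, which are not translated and are described apart, had a different distribution. Of 67 measured, 44 (65.7%) had a log2 ratio of 1 or more and 1 (1.49%) of -1 or less, and the authors' deposited table called 26 (38.8%), all higher. With recovered reads, 25 of 59 (42.4%) had both SUP35-Cter libraries above both [PSI+] libraries and 5 (8.47%) below. edgeR's quasi-likelihood test called 0 of 59, with 30 (50.8%) under an unadjusted p of 0.05, and DESeq2 called 9 (15.3%). Some called small RNAs, among them snR43 and SCR1, had no recovered reads, so these tests left them out.

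H/ACA snoRNAs, which guide pseudouridylation of ribosomal RNA, had the higher median log2 ratio, 2.20, with 25 of 26 above 0 and 19 called, beside 38.8% of all small RNAs. snR8 had 19793 and 8527 normalized counts in the SUP35-Cter libraries, against 2876 and 935 in the [PSI+] libraries (log2 ratio 2.89), apart in all libraries. snR30, needed to process the small subunit RNA, had 2618 and 539.7 normalized counts in the SUP35-Cter libraries, against 203 and 305 in the [PSI+] libraries (log2 ratio 2.63). snR46 had 5864 and 535 normalized counts in the SUP35-Cter libraries, against 664 and 66.6 in the [PSI+] libraries (log2 ratio 3.13, and 0.55 without the deeper SUP35-Cter library), where the shallower SUP35-Cter library was below the deeper [PSI+] library. The 5 H/ACA RNAs of the highest ratio, snR43, snR161, snR81, snR33 and snR35, had log2 ratios of 4.86, 4.09, 4.08, 4.07 and 3.54 from the condition means, and their reads per library were not recovered. C/D snoRNAs, which guide 2'-O-methylation, had a median of 1.24, with 5 of 27 called. snR45 had 42604 and 21364 normalized counts in the SUP35-Cter libraries, against 5388 and 1321 in the [PSI+] libraries (log2 ratio 3.25), and snR66 had 1512 and 284 normalized counts in the SUP35-Cter libraries, against 1524 and 1526 in the [PSI+] libraries (log2 ratio -0.76), in the other direction.

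Among small RNAs with recovered reads, 1 library set much of this difference. The deeper SUP35-Cter library exceeded the shallower by a median log2 difference of 1.61 over the small RNAs, 1.88 over H/ACA and 2.20 over C/D snoRNAs. Without it the medians were 0.36 for 59 small RNAs, 0.47 for 21 H/ACA and -0.05 for 26 C/D snoRNAs with recovered reads. Over the same 21 H/ACA RNAs the median was 2.00 without the deeper and 1.59 without the shallower [PSI+] library. It was 2.76 without the shallower SUP35-Cter library. The 5 H/ACA RNAs of the highest ratio and SCR1, with no recovered reads, are left out of these medians. Small RNAs took 1.14% and 0.549% of the recovered reads in the SUP35-Cter libraries, against 0.481% and 0.241% in the [PSI+] libraries. These shares leave out NME1, SCR1, snR4 and the same 5 H/ACA RNAs of the highest ratio, whose reads were not recovered. Over the condition means of all rows, small RNAs made up 1.14% in SUP35-Cter cells and 0.86% in [PSI+] cells. Why the deeper SUP35-Cter library stood apart was not tested.

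**Figure D5:**
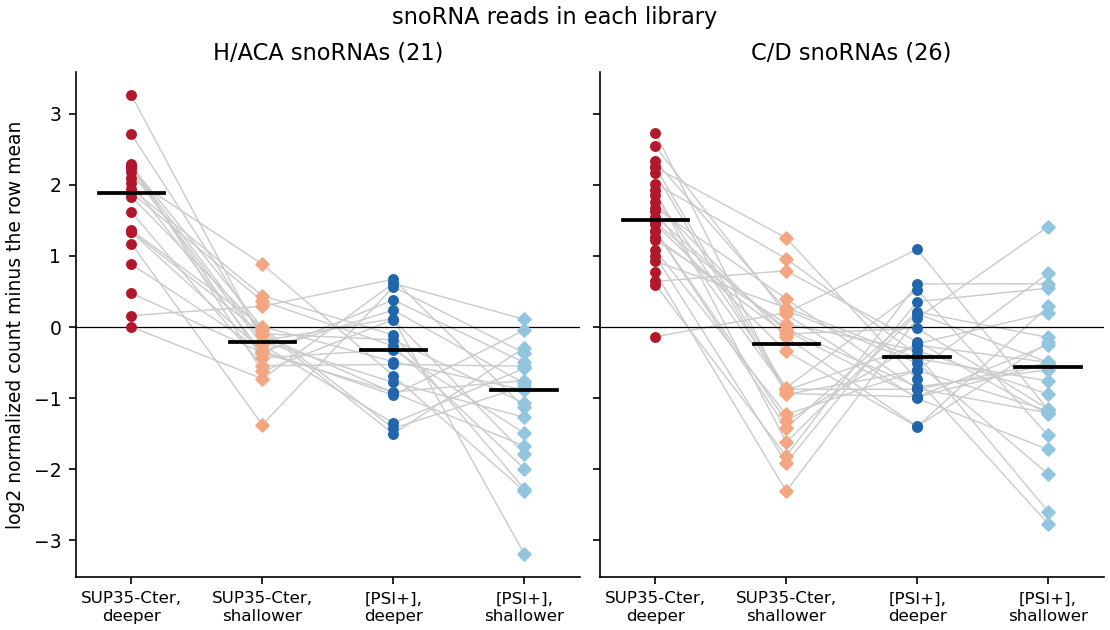
Log2 normalized count minus the mean of the same RNA over the 4 libraries, for 21 H/ACA and 26 C/D snoRNAs with recovered reads, with a black bar at the median of each library. The deeper SUP35-Cter library stands highest. The C/D median is -0.24 in the shallower SUP35-Cter library, against -0.41 and -0.56 in the deeper and shallower [PSI+] libraries.

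Other structural RNAs differed among themselves. SCR1, the signal recognition particle RNA, averaged 80519 in SUP35-Cter cells and 6263 in [PSI+] cells in the authors' deposited table (log2 ratio 3.68), while NME1, the RNA of RNase MRP, averaged 46585 in SUP35-Cter cells and 156776 in [PSI+] cells in the authors' deposited table (log2 ratio -1.75). Reads per library were not recovered for either. LSR1, the U2 spliceosomal RNA, had 5176 and 2460.1 normalized counts in the SUP35-Cter libraries, against 1591 and 708 in the [PSI+] libraries (log2 ratio 1.73, and 1.10 without the deeper SUP35-Cter library) and was called. The U4 RNA snR14 had 2039 and 2332 normalized counts in the SUP35-Cter libraries, against 4955 and 2969 in the [PSI+] libraries (log2 ratio -0.86, and -0.44 without the deeper [PSI+] library), apart in the other direction, and RPR1, the RNA of RNase P, had 3038 and 1481 normalized counts in the SUP35-Cter libraries, against 5750.4 and 3003 in the [PSI+] libraries (log2 ratio -0.95), with a narrow overlap. Of 10 tRNA rows 2 were measured, so tRNA is not described.

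The series also compared [PSI+] with [psi-] cells in the rich medium YPD, with separate libraries and no SUP35-Cter. Of the 48 genes called higher in SUP35-Cter cells, 40 were measured in YPD, where 33 had a [PSI+] over [psi-] log2 ratio above 0 (median 0.79) and 30 had both [PSI+] libraries above both [psi-] libraries. Over all 4904 genes in both media 50.6% were above 0, 36.2% had both [PSI+] libraries higher and the median was 0.01. The 6 genes called lower and measured in YPD were split, with 3 above 0. Across all genes the ratios of the 2 comparisons had a Pearson r of 0.22 and a Spearman rho of 0.27, as a description across genes. SUP35 had opposite signs, 1.72 in SUP35-Cter over [PSI+] cells and -1.09 in [PSI+] over [psi-] cells.

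By list, the YPD medians were 0.60 for Golgi mannosyltransferases, 0.87 for O-mannosyltransferases, 0.65 for GPI anchor synthesis, 0.73 for ABC transporters and -0.48 for the proteasome, beside 0.80, 0.94, 0.52, 0.71 and -0.45 in YNB. The translocon list was 0.18 in YPD and -0.31 in YNB. Other lists also had opposite signs. The tRNA synthetases had 0.25 in YPD and -0.28 in YNB, mitochondrial ribosomal proteins 0.33 and -0.18, and ribosome biogenesis 0.36 and -0.04. Sulfur and methionine genes had -0.42 in YPD and 0.22 in YNB. Lists not named here went both ways, and those named were picked after values were seen. The Msn2/4 stress list was at -3.31 in YPD with 0 of 51 genes above 0, beside -0.23 with 17 of 55 above 0 in YNB. These values differ in the genotypes compared as well as in the medium, and no difference between them was tested.

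Markers of mating type were read for mixed cell types. MFA1, an a-factor gene, had 1948 and 2104 normalized counts in the SUP35-Cter libraries, against 3822 and 3852 in the [PSI+] libraries (log2 ratio -0.92), and the main alpha-factor gene MF(ALPHA)1 had 17.9 and 102 normalized counts in the SUP35-Cter libraries, against 15.6 and 13.9 in the [PSI+] libraries, far fewer in each library. Another alpha-specific gene, the a-factor receptor STE3, had 330.4 and 259 normalized counts in the SUP35-Cter libraries, against 205 and 97.1 in the [PSI+] libraries (log2 ratio 0.96). The 8 a-specific genes had a median log2 ratio of 0.28, which was -0.07 without the deeper SUP35-Cter library, and the 5 alpha-specific genes of 0.17, which was -0.14 without it. The part of mating type in other results was not tested. Most other rows were 86 measured reading frames with no RefSeq entry, whose median log2 ratio was -0.07.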

How the data were processed

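Footprints were sequenced from 2 SUP35-Cter [PSI+] and 2 [PSI+] libraries in YNB. Reads were handled with cutadapt 1.2.1, Bowtie2, HTSeq 0.5.3p3 and DESeq 1.6.1, with the sacCer3 build, per the submitters' processing notes. The deposited table gives condition means as a normalized signal, their fold ratio, a log10 fold and p-values with adjusted p-values, all computed by the authors. The YPD table gives counts deposited by the authors, whose lowest value of 1 was read as 1 added to each, and a log2 fold column of the authors was not used. YPD reads were mapped with Bowtie to sacCer2, per the submitters' processing notes. Not used here were 4 columns of per-sample values.

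Log2 ratios used 0.5 added to each condition mean and a minimum average of 10. Reads per library were recovered from the means, fold and p-values. On simulated data 5860 of 5920 rows were recovered, 0 with other reads. The simulated p-values came from a dispersion of the mean alone, which the recovery assumes, so that assumption was not tested there. edgeR 4.0.16 (quasi-likelihood) and DESeq2 1.42.0 ran on these reads with the authors' size factors, in R 4.3.3. YPD counts, less the added 1, were scaled by median-of-ratios size factors. Names and lengths came from RefSeq for 5677 of 6190 rows. Named genes were SUP35, SUP45, HSP104, the strain's markers, the termination list, up to 12 called genes each way by ratio with an average of 50 or more, and the members of each list with the largest ratios. The members, the 45 lists and the rule were chosen with earlier results of these data known. The 9 added lists, and genes outside the rule, were chosen after values were seen.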

Additional observations from a re-analysis of the deposited data

How the results depend on the processing

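Recovered reads limit the precision: 1 read in the shallower [PSI+] library was worth 2.78 normalized counts. No paired analysis was possible because recovered libraries carry no replicate number. Genes past 2-fold numbered 229, 335 with protein-coding sums, and 186 to 489 with 1 library left out, 489 without the deeper [PSI+] and 351 without the shallower SUP35-Cter library. The 55 called genes became 28 at an adjusted p under 0.01, 3 with each gene's own dispersion, 0 with edgeR, 0 with edgeR and TMM, 21 with edgeR and no minimum, and 149 with DESeq2. With 1 library left out the deposited test called 20 to 59, 27 without the shallower [PSI+] and 20 without the deeper SUP35-Cter library, and edgeR 0 to 172, where the lone library is assumed to vary like the other group. Small RNAs past 2-fold, 45 of 67 measured, became 25 when limited to those with recovered reads and libraries apart. They numbered 24 to 42 with 1 left out, 24 without the deeper SUP35-Cter library. Counts with 1 left out cover only rows with recovered reads, 59 of the small RNAs. The 26 called small RNAs became 0 with own dispersion, 0 with edgeR, 0 with TMM, 2 with edgeR and no minimum, 9 with DESeq2, and with 1 left out 7 to 27 by the deposited test and 0 to 32 by edgeR. INO1 turned to -0.30 without the shallower SUP35-Cter library and was 3.33 without the deeper one. Of 56 list medians 22 kept their sign under every setting and 34 turned under some, as did 18 of 149 named genes and RNAs. Own dispersion, libraries apart, TMM, edgeR with no minimum, and single libraries left out of lists and named genes were chosen after seeing the data. The cause of these differences was not tested, apart from the dispersion, which the deposited test took from the mean alone in the rows where this could be checked.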
